A study of Saccharomyces cerevisiae with 12 samples.

Results

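The Ehrlich pathway of budding yeast turns amino acids into fusel alcohols and acids, and alcohol acetyltransferases turn such alcohols into the acetate esters of fermentation aroma. The genes described here are ARO8 and ARO9, which encode the aromatic aminotransferases, ARO10, which encodes the main decarboxylase of the resulting 2-oxo acids, ARO80, which encodes the transcription activator of ARO9 and ARO10, and ATF1 and ATF2, which encode the alcohol acetyltransferases. They are 6 of 5449 Saccharomyces cerevisiae genes measured, chosen by their role with the responses of these same arrays already known. Their changes over time and their differences between the strains are therefore given as a description. Each had 1 probe set on the array, so the rule, which selected on the highest mean intensity within a gene, left none out.

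Aro8 and Aro9 take the amino group from phenylalanine, tyrosine and tryptophan. Aro10 then removes carbon dioxide, and the aldehyde that is left is reduced by alcohol dehydrogenases or oxidized by aldehyde dehydrogenases. ARO9 and ARO10 are induced through Aro80 when aromatic amino acids are present, and they also answer to the GATA factors that switch on the use of poor nitrogen sources. Atf1 and Atf2 are related membrane-associated enzymes. ATF1 is repressed by oxygen and unsaturated fatty acids, and Atf2 also acetylates sterols.

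The samples came from a pair of CEN.PK strains, KOY.PK2-1C83P as the reference and KOY.VW101P as the null strain, in which all known hexose transporter genes are deleted (the labels do not list the alleles). Each is a single constructed strain. Chemostats, which are continuous cultures, held both strains on limiting ethanol, and sampling fell before the addition of a glucose pulse, at steady state (0 min), and 20 min after it. Each of the 4 groups (reference or null, 0 or 20 min) holds 3 arrays, described by the submitters as biological replicates, so all groups share the background, the ethanol feed and the array type (Affymetrix, 1 log2 intensity per probe set). The comparison addresses which answers to glucose depend on its entry into the cell.

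The strain labels held in a check of HXT1, HXT2, HXT3, HXT4, HXT5 and HXT7, which encode hexose transporters. On the 6 null arrays they lay at most 0.14 log2 units above the lowest value of the array, and on the 6 reference arrays at least 3.32 above it. The time labels of replicate 2 went against those of replicates 1 and 3. Over all genes (not independent replicates), the 4 arrays of replicate 2 had mean correlations of 0.722 to 0.942 with replicates 1 and 3 of their own labelled group, and of 0.984 to 0.994 with those of the same strain at the other labelled time. No array was moved to another group. Values over time are therefore given first from replicates 1 and 3 (8 arrays, 2 per group), then with replicate 2, and leaving it out rests on the contrast over time itself. With so few arrays per group, precision is limited throughout.

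At 20 min the reference strain had lost nearly all signal of ARO9 and ARO10, while ATF2 had become 15.5 times as bright (6.89 with arrays centred on their medians, 4.88 as deposited) and ARO8 2.22 times. ARO80 and ATF1 were lower as well, by 1.70-fold and 2.19-fold, or by 5.39-fold and 4.06-fold as deposited. In the null strain ARO9 and ARO10 stayed bright, and ATF2 was lower, not higher, at 20 min. On the 8 arrays all 6 genes passed the threshold (limma, adjusted p under 0.05 over all genes) in the reference strain, 2 higher and 4 lower, beside 72.0% of all genes (38.9% higher, 33.1% lower). In the null strain 2 of 6 passed, 1 higher and 1 lower, beside 27.5% of all genes (12.9% higher, 14.6% lower). These counts are a description, as most genes of the reference strain passed too. The median log2 difference of the 6 genes was -0.95 in the reference strain against 0.12 over all genes, and 0.35 in the null strain against 0.04.

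**Figure D1:**
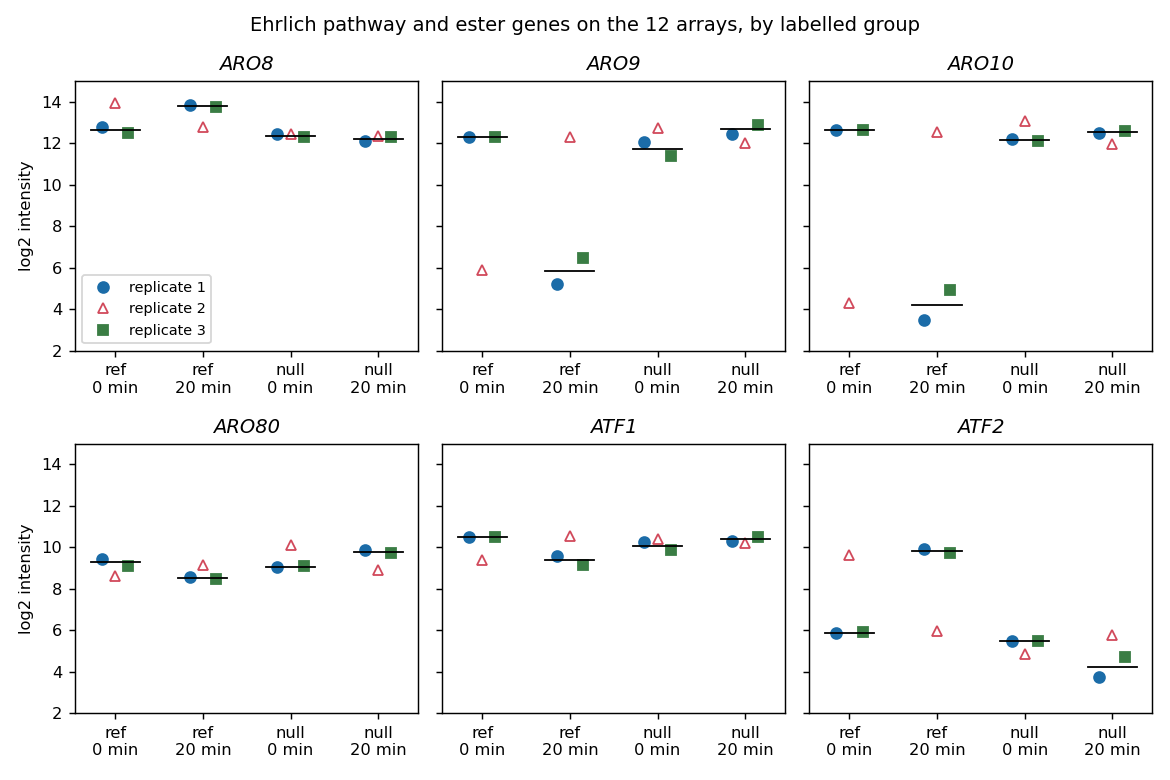
Normalized log2 intensity (y axis) of each gene on the 12 arrays, by labelled group (x axis); symbols mark the replicate number and bars the mean of replicates 1 and 3. ARO9 and ARO10 sit between 11.37 and 12.89 on every array of replicates 1 and 3 except the reference arrays labelled 20 min, where they sit between 3.46 and 6.47.

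Of the aminotransferase genes, ARO8 had a log2 intensity of 12.78 in replicate 1 and 12.50 in replicate 3 of the reference strain at 0 min, then 13.84 and 13.74 at 20 min. On the null arrays it had 12.44 and 12.30 at 0 min, then 12.13 and 12.31 at 20 min. The reference arrays at 20 min were above all others, and the null groups overlapped. Groups over time were without overlap for all 6 genes in the reference strain, as for 86.4% of all genes, and for 5 of 6, all but ARO8, in the null strain, as for 65.6%. The log2 difference over time was 1.15 (SE 0.14) in the reference strain, a rise by 2.22-fold, and -0.15 (SE 0.14, 95% interval -0.49 to 0.19) in the null strain. The order of the group means was reference 20 min (13.79), reference 0 min (12.64), null 0 min (12.37) and null 20 min (12.22), and only the last pair overlapped.

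ARO9, the inducible aminotransferase, went the other way. It had 12.32 and 12.29 on the reference arrays at 0 min and 5.20 and 6.47 at 20 min. On the null arrays it had 12.06 and 11.37 at 0 min, then 12.46 and 12.89 at 20 min. Only the reference arrays at 20 min were low, and neither strain's groups overlapped. ARO9 fell by 6.47 on the log2 scale (SE 0.46) in the reference strain, the 30th largest fall of the 5449 genes, while the null strain had a difference of 0.96 (SE 0.46, interval -0.20 to 2.12) that did not pass. Group means ran from null 20 min (12.67) through reference 0 min (12.31) and null 0 min (11.71) to reference 20 min (5.84), with no overlap between neighbours. As deposited, the 20 min reference values were 3.97 and 4.58, so the size of this fall is also set near the lower end of the scale.

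ARO10, the decarboxylase, showed the largest change of the 6. Its values were 12.65 and 12.62 on the reference arrays at 0 min and 3.46 and 4.91 at 20 min. The null arrays had 12.23 and 12.10 at 0 min, then 12.52 and 12.58 at 20 min. The reference arrays at 20 min were again the only low ones. In the reference strain it fell by 8.45 (SE 0.45), the 2nd largest fall of all genes and a 350.2-fold loss with a 95% interval of 161.5 to 759.7. That interval measures only the spread among the arrays kept after replicate 2 was left out. With replicate 2 in as labelled, the 95% interval of the log2 difference was -8.80 to 3.05. As deposited, the 20 min values were 3.04 and 3.58, where the lowest value of an array was 2.01 to 2.11, which limits what the size of this fall can show. The null strain had a difference of 0.38 (SE 0.45, interval -0.73 to 1.50). The order was reference 0 min (12.64), null 20 min (12.55), null 0 min (12.16) and reference 20 min (4.18 ± 1.02, SD, n = 2), and no neighbours overlapped.

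ARO80, the activator gene, moved less in the reference strain than ARO9 and ARO10, which it is known to activate. It had 9.44 and 9.12 on the reference arrays at 0 min and 8.58 and 8.46 at 20 min. On the null arrays it had 9.04 and 9.12 at 0 min, then 9.86 and 9.72 at 20 min. The reference arrays at 20 min were the lowest and the null arrays at 20 min the highest, without overlap within either strain. The log2 difference was -0.76 (SE 0.14) in the reference strain and 0.71 (SE 0.14) in the null strain, and both passed. The rise in the null strain ended with the scaling: it was 0.30 with arrays centred on their medians and 0.05 as deposited, and neither passed. The call also ended without any 1 of the 4 null arrays, where the value was 0.64 to 0.78. By mean, the groups ranked null 20 min (9.79), reference 0 min (9.28), null 0 min (9.08) and reference 20 min (8.52), and no neighbours overlapped.

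Between the ester genes the directions parted in the reference strain. ATF1, which encodes the acetyltransferase known for most acetate ester synthesis, had 10.50 on both reference arrays at 0 min and 9.57 and 9.17 at 20 min. Its null arrays had 10.28 and 9.89 at 0 min, then 10.29 and 10.51 at 20 min. The reference arrays at 20 min were the lowest. ATF1 fell by 1.13 (SE 0.20) in the reference strain and differed by 0.32 (SE 0.20, interval -0.17 to 0.81) in the null strain. Reference 0 min (10.50) and null 20 min (10.40) overlapped at the top, followed by null 0 min (10.08) and reference 20 min (9.37).

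ATF2 had 5.88 and 5.91 on the reference arrays at 0 min and 9.95 and 9.75 at 20 min. On the null arrays it had 5.50 and 5.49 at 0 min, then 3.77 and 4.74 at 20 min. The reference arrays at 20 min were the only high ones, and the null arrays at 20 min lay below those at 0 min. ATF2 rose by 3.96 (SE 0.31) in the reference strain, the 92nd largest rise of all genes, and fell by 1.25 (SE 0.31) in the null strain. The fall in the null strain stayed below 0 without any 1 array, at -1.73 to -0.76, but its call ended in 6 of 8 such fits: without any 1 of the 4 reference arrays, or of the null arrays at 0 min. The groups ranked reference 20 min (9.85), reference 0 min (5.90), null 0 min (5.50) and null 20 min (4.25), without overlap. The null values at 20 min were 4.30 and 4.18 as deposited, also near the lower end.

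The scaling of the arrays set the size of several of these changes. Over all genes the median change in the reference strain was 0.12 after quantile normalization, 0.11 with arrays centred on their medians and -0.38 as deposited. The genes that passed were split into 2121 higher and 1803 lower after quantile normalization, and into 1419 and 2491 as deposited. For the null strain that split was 701 to 798, and 250 to 1183 as deposited. The reference response of ARO80 was -0.76, -1.93 and -2.43 under these scalings, in the same order. That of ATF1 was -1.13, -1.53 and -2.02, and that of ATF2 was 3.96, 2.78 and 2.29. ARO9 (-6.47, -7.55 and -8.05), ARO10 (-8.45, -8.83 and -9.32) and ARO8 (1.15, 1.69 and 1.19) kept their directions as well. ARO8 in the null strain turned to 0.083 with centred arrays and ATF1 to -0.026 as deposited, neither passing, and ARO9 passed with centred arrays at 1.14. As deposited, 4.79 to 5.12% of genes lay under a log2 intensity of 5 on the reference arrays of replicates 1 and 3 at 0 min, and 9.60 to 9.73% on those at 20 min. The part of this shift in the differences between scalings was not tested.

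**Figure D2:**
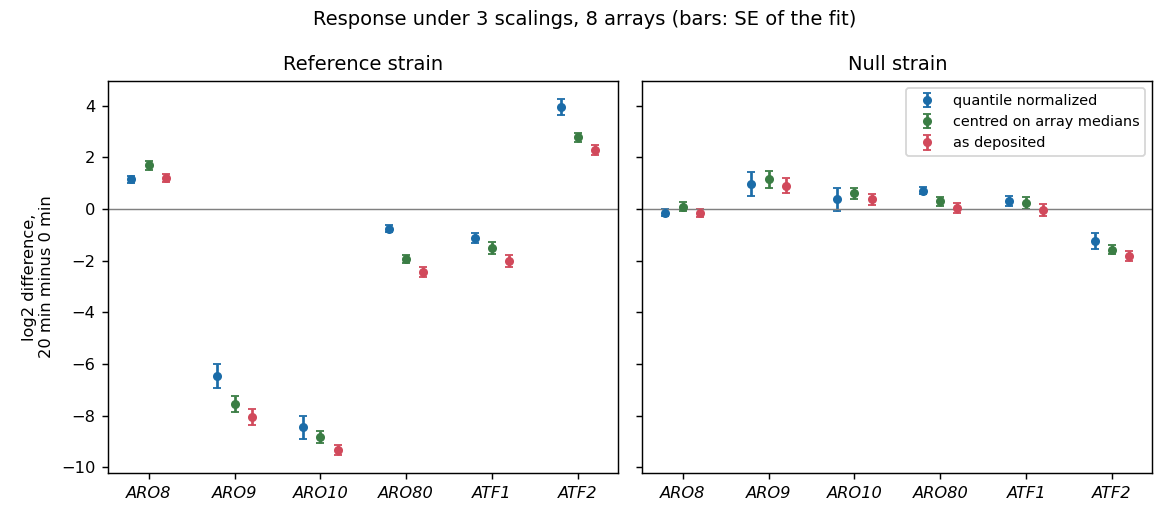
Log2 difference between 20 and 0 min (y axis) of each gene (x axis) in both strains on the 8 arrays, under 3 scalings of the arrays; bars are SE of the fit. In the reference strain each gene keeps its sign under every scaling, and ARO80 varies from -0.76 to -2.43.

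Replicate 2 showed differences of like size and opposite sign in the reference strain. Between its arrays labelled 20 and 0 min, ARO10 differed by 8.27, against -9.19 in replicate 1 and -7.71 in replicate 3. ARO9 differed by 6.42, against -7.12 and -5.82. ATF2 differed by -3.70, against 4.07 and 3.84. On the reference arrays labelled 0 and 20 min, ARO10 had 4.28 and 12.55, ARO9 had 5.90 and 12.32, and ATF2 had 9.65 and 5.95. ARO8 had 13.94 and 12.80 there, ARO80 had 8.62 and 9.14, and ATF1 had 9.38 and 10.58. All 12 replicate 2 values of the 6 genes in the reference strain lay nearer to the mean of replicates 1 and 3 at the other labelled time than to that of their own.

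Of the 12 null values 11 did, the exception being ARO8 on the array labelled 0 min. For ATF2 on that array the distances were all but equal, 0.6233 from its own label and 0.6225 from the other. The null groups of ARO8 overlap, so the position of its values tells little. On the null arrays of replicate 2 labelled 0 and 20 min, ARO10 had 13.07 and 11.97 and ATF2 had 4.87 and 5.80, while ARO9 had 12.76 on the array labelled 0 min. ARO8 had 12.47 and 12.33, ARO80 had 10.10 and 8.91, and ATF1 had 10.42 and 10.19. The null differences in replicate 2 were -0.76 for ARO9, -1.10 for ARO10, -1.20 for ARO80 and 0.93 for ATF2. With all 12 arrays as labelled, limma called 0 of the 6 genes and 0% of all genes over time in either strain (of all genes, 15 in the reference strain and 22 in the null strain had an unadjusted p under 0.05; of the 6, 0 and 0). ARO10 then had a log2 difference of -2.88 (SE 2.63) in the reference strain and -0.11 (SE 2.63) in the null strain, and ARO9 -2.17 (SE 2.05) and 0.39 (SE 2.05). ATF2 had 1.40 (SE 1.26) and -0.52 (SE 1.26).

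**Figure D3:**
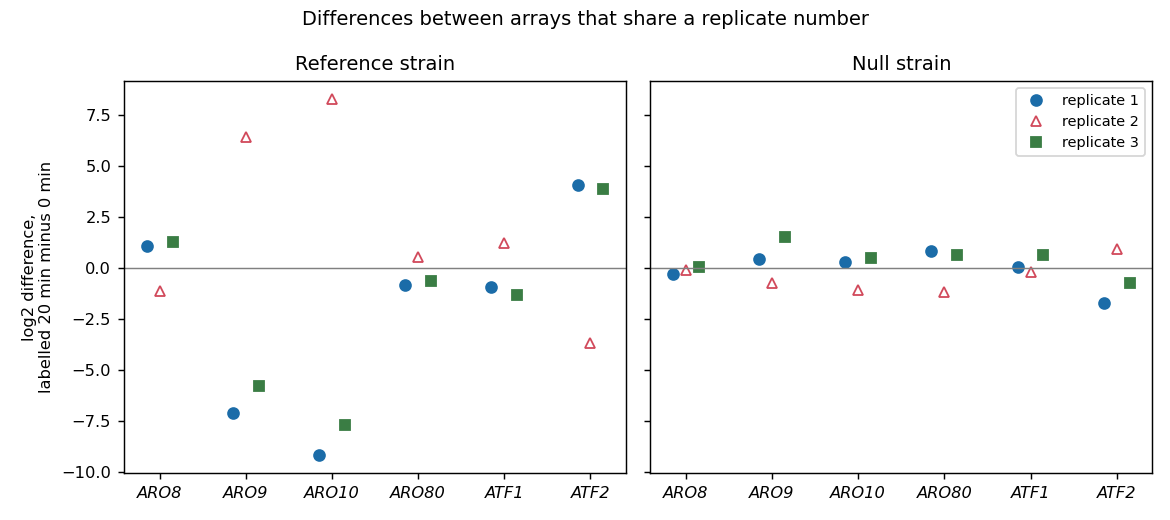
Log2 difference between the arrays of 1 replicate number labelled 20 and 0 min (y axis) for each gene (x axis) in both strains. In the reference strain the open triangles of replicate 2 lie on the other side of 0 from replicates 1 and 3 for all 6 genes.

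The difference between the responses of the strains was fitted directly on the 8 arrays. All 6 genes passed, beside 66.0% of all genes, 4 with a higher response in the null strain and 2 with a lower one (32.4% and 33.6% of all genes). The difference, null minus reference response, was 8.83 (SE 0.63) for ARO10 and 7.43 (SE 0.65) for ARO9. It was 1.47 (SE 0.19) for ARO80 and 1.45 (SE 0.28) for ATF1. ATF2 had -5.20 (SE 0.44) and ARO8 -1.30 (SE 0.19), so these responses were lower in the null strain. With centred arrays and as deposited, the values were 9.44 and 9.69 for ARO10, 8.70 and 8.95 for ARO9, 2.23 and 2.48 for ARO80, 1.75 and 2.00 for ATF1, and -4.36 and -4.10 for ATF2. With all 12 arrays as labelled limma called 0 of the 6 (0% of all genes; 17 genes, none of the 6, had an unadjusted p under 0.05).

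At 0 min, before the pulse, no difference between the strains passed in these genes. On the 8 arrays limma called 0 of the 6 (0 at an unadjusted p under 0.05), beside 1.28% of all genes (0.881% higher and 0.404% lower in the null strain). The null strain was lower in each, with log2 differences from -0.20 for ARO80 to -0.59 for ARO9, and the groups did not overlap for any of the 6, as for 42.8% of all genes. For ARO10 the difference of -0.47 had a 95% interval of -1.59 to 0.64. ATF2, at -0.40, passed at -0.96 with arrays centred on their medians. With replicate 2 in as labelled, the difference turned to 1.89 for ARO9, 2.62 for ARO10, 0.36 for ARO80 and 0.066 for ATF1. By limma 0 of the 6 were then called (0 at an unadjusted p under 0.05), beside 0.459% of all genes (0.257% higher, 0.202% lower).

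At 20 min ARO9 and ARO10 were far brighter in the null strain and ATF2 far dimmer. All 6 genes passed on the 8 arrays by limma, 4 higher and 2 lower in the null strain, beside 75.3% of all genes (36.6% higher, 38.7% lower). The groups did not overlap for any of the 6, as for 88.8% of all genes. These counts rest on leaving out replicate 2, which decides what the 20 min groups hold, and are a description. ARO10 was 329.1-fold higher (log2 difference 8.36, SE 0.45), or 544.6-fold with centred arrays and 599.8-fold as deposited. ARO9 was 114.3-fold higher (6.84, SE 0.46), or 302.2-fold and 332.8-fold. ATF2 was 48.5-fold lower (log2 difference -5.60, SE 0.31), or 39.7-fold with centred arrays and 36.0-fold as deposited. Its null values at 20 min lay near the lower end of the scale, which limits this size. ARO8 was 2.96-fold lower, or 3.40-fold and 3.09-fold. ARO80 was 2.41-fold higher, a log2 difference of 1.27 that was 2.02 with centred arrays and 2.16 as deposited. ATF1 was 2.04-fold higher, or 2.61-fold with centred arrays and 2.87-fold as deposited. With all 12 arrays as labelled, limma called 0 of the 6, beside 0.642% of all genes (0.367% higher, 0.275% lower). Of the 6, 2 then had an unadjusted p under 0.05, namely ARO8 and ATF2, as did 2131 of all genes. ARO10 was at 5.38 (limma adjusted p = 0.146) and ATF2 at -3.78 (limma adjusted p = 0.115).

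A comparison that does not depend on which array of a number is labelled 0 or 20 min is that of the strains over both times. For each strain and replicate number the arrays at 0 and 20 min were averaged, which gives 3 means per strain and keeps replicate 2. Such a mean joins unlike states. On the 8 arrays the difference, null minus reference, was -0.47 at 0 min and 8.36 at 20 min for ARO10, and -0.59 and 6.84 for ARO9. ARO10 had 8.06, 8.41 and 8.76 in the reference strain and 12.37, 12.52 and 12.34 in the null strain. ARO9 had 8.76, 9.11 and 9.38 against 12.26, 12.38 and 12.13. ATF2 had 7.91, 7.80 and 7.83 against 4.63, 5.34 and 5.12. The strains did not overlap for any of the 6 genes, which held for 78.5% of all genes.

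By limma on these means all 6 genes differed, beside 75.1% of all genes, 4 higher in the null strain (36.8% of all genes) and 2 lower (38.3%). ARO10 was 15.97-fold higher (adjusted p = 1.91e-05 by limma) and ARO9 was higher by 3.17 on the log2 scale (SE 0.17, adjusted p = 3.06e-05 by limma). ARO80 (8.90 ± 0.11 against 9.46 ± 0.04, SD, n = 3) was higher by 0.56 (limma adjusted p = 0.000727), and by 0.90 with centred arrays and 0.91 as deposited. ATF1 (9.95 ± 0.10 against 10.26 ± 0.06, SD, n = 3) was higher by 0.31 (limma adjusted p = 0.00809), a call that ended with replicates 1 and 3 only (0.31, limma adjusted p = 0.0727), and a difference that was 0.50 with centred arrays and 0.51 as deposited. ATF2 was lower (log2 difference -2.82, SE 0.18, adjusted p = 5.98e-05 by limma). So was ARO8 (13.27 ± 0.13 against 12.33 ± 0.06, SD, n = 3), with a difference of -0.94 (limma adjusted p = 0.000168).

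**Figure D4:**
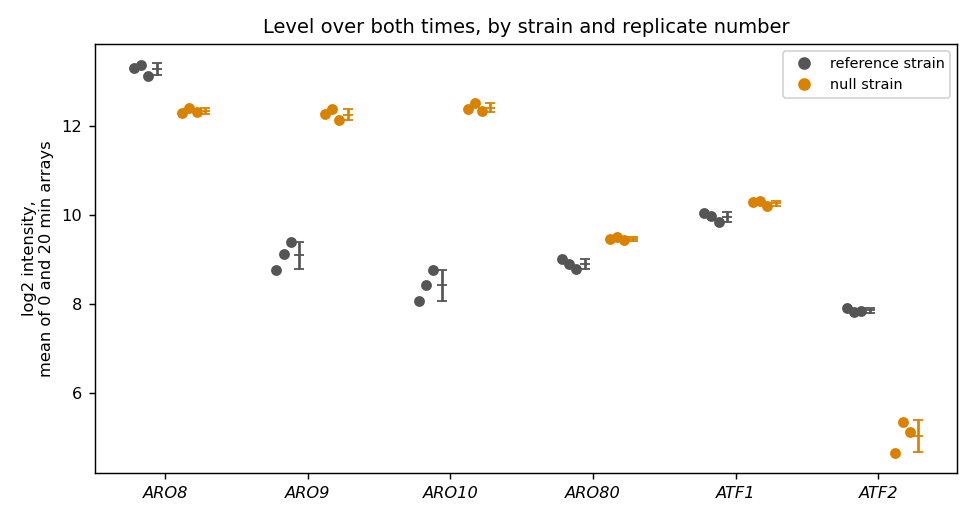
Mean log2 intensity over the 0 and 20 min arrays (y axis) for each gene (x axis), 1 point per strain and replicate number, with mean and SD (n = 3) beside the points. The strains do not overlap for any gene, with ARO9 and ARO10 higher and ARO8 and ATF2 lower in the null strain.

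Likeness over the 12 arrays was measured as the root mean square difference after each gene was centred on its own mean, which favours pairs of small span. ARO80 and ATF1 differed by 0.35 log2 units, beside spans of 1.64 and 1.40. ARO9 and ARO10 differed by 0.83, beside spans of 7.69 and 9.60 units. ARO10 and ATF2 differed by 5.57, the highest of the pairs. Of 4495 other genes whose values span over 1 log2 unit, those nearest to ARO10 were VID30 (0.30), GGA1 (0.48) and YPI1 (0.51). Nearest to ARO9 were EGH1 (0.24), YNL194C (0.31) and IDP3 (0.31). Nearest to ATF2 were DAS2 (0.20), FYV7 (0.27) and UTP6 (0.36). For ARO8 they were GND1, BOI2 and SMY1 (0.12 to 0.14), for ARO80 RSF1, APN2 and TOM71 (0.15 to 0.16), and for ATF1 NPC2, PEP1 and MDV1 (0.12 to 0.15).

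The rest of the Ehrlich pathway was divided in the reference strain. Of 21 other enzyme, export and regulator genes 10 rose, 10 fell and ADH7 lay near the lowest value on all arrays. The median log2 difference was 0.00 against 0.12 over all genes, but that median is the floor value of ADH7 itself. It was -0.06 as deposited and 0.43 with centred arrays. Of all genes 38.9% rose and 33.1% fell. As deposited the split was 7 to 10, and with centred arrays 11 to 9. ALD6, the cytosolic acetaldehyde dehydrogenase, fell by 4.50 (SE 0.20), and ADH2, the alcohol dehydrogenase of ethanol use, fell by 3.50 (SE 0.10). PDC5, a pyruvate decarboxylase that also accepts 2-oxo acids of the pathway, rose by 3.78 (SE 0.32). The branched-chain aminotransferase genes, chosen after their values were seen, parted as ARO8 and ARO9 did: BAT1 rose by 1.32 (SE 0.10) and BAT2 fell by 3.34 (SE 0.10). PDR12, the exporter of fusel acids, also chosen after its values were seen, rose by 1.56 (SE 0.20).

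Of these 21 genes 2 rose and 2 fell in the null strain (1 and 2 as deposited, 3 and 1 with centred arrays), beside 12.9% and 14.6% of all genes. ALD3, a stress-induced aldehyde dehydrogenase, rose by 3.62 (SE 0.34), ALD5, a mitochondrial one, fell by 2.21 (SE 0.17) and ADH6, an NADPH-dependent alcohol dehydrogenase, fell by 0.54 (SE 0.14). BAT1 (-0.29, SE 0.10) and BAT2 (-0.28, SE 0.10) did not pass. Over both times 12 of the 21 were higher and 7 lower in the null strain by limma, beside 36.8% and 38.3% of all genes. ALD3 was higher by 3.05, ALD2, its paralog, by 2.21 and ALD6 by 2.17, with a largest adjusted p of 7.15e-05 by limma. These genes were named as the largest differences past the threshold, so that p is a description.

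Of the other ester genes, IAH1, which encodes the esterase that splits isoamyl acetate, fell by 2.10 (SE 0.20) in the reference strain. EHT1 fell by 0.89 (SE 0.18) and EEB1 rose by 0.75 (SE 0.20); both encode enzymes of ethyl ester synthesis. The rise of EEB1 did not pass as deposited or with centred arrays. EEB1 rose by 1.30 (SE 0.20) in the null strain, while IAH1 (-0.10) and EHT1 (0.17) did not pass. All 3 were higher in the null strain over both times, as were 36.8% of all genes, IAH1 by 1.08 (limma adjusted p = 0.000196). IAH1 had the largest difference of the 3, and its p is a description.

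Of 11 measured genes that make aromatic amino acids, 6 rose, 2 fell and 3 did not pass in the reference strain (median 0.74, with 38.9% of all genes rising and 33.1% falling), with 4 to 2 as deposited and 8 to 2 with centred arrays. ARO7, the chorismate mutase, rose by 3.44 (SE 0.24) and PHA2, the prephenate dehydratase, by 2.43 (SE 0.32), while ARO1, the pentafunctional enzyme of the shikimate route, fell by 1.50 (SE 0.18). The null strain had 6 falls and 0 rises among the 11, beside 14.6% and 12.9% of all genes (median -0.39, against 0.04 over all genes). The largest were -1.87 (SE 0.32) for PHA2, -1.54 (SE 0.14) for the chorismate synthase gene ARO2 and -1.37 (SE 0.18) for TRP4, which encodes a transferase of tryptophan synthesis. Over both times 9 were lower and 1 higher in the null strain by limma, beside 38.3% and 36.8% of all genes, led by PHA2 at -2.52 (limma adjusted p = 5.03e-05). PHA2 was named for its size among the genes past the threshold, so its p is a description.

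Of 7 amino acid permease genes 4 rose and 1 fell in the reference strain (3 and 2 as deposited, 5 and 1 with centred arrays), a share near the 72.0% of all genes that passed. The general permease gene GAP1, which is switched off in good nitrogen supply, fell by 3.32 (SE 0.30). GNP1, a glutamine permease, rose by 3.59 (SE 0.22) and AGP1, a broad-range permease, by 2.81 (SE 0.20). AGP1 fell by 0.95 (SE 0.20) in the null strain, GNP1 rose by 0.84 (SE 0.22), and the other 5 did not pass, where 27.5% of all genes passed. As deposited the null strain had 0 rises and 3 falls among the 7.

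Among 15 GATA factor genes and nitrogen catabolic genes, 8 fell, 3 rose and 4 did not pass in the reference strain (median -0.76), where 72.0% of all genes passed (33.1% lower, 38.9% higher). As deposited 1 rose and 10 fell (median -1.165), and with centred arrays 1 rose and 8 fell (median -0.668). The 3 rises after quantile normalization, named after their values were seen, were GZF3 (2.01, SE 0.33), DAL80 (1.94, SE 0.42) and UGA4 (0.96, SE 0.25). PUT4, the proline permease, fell by 4.26 (SE 0.21), GDH2, the catabolic glutamate dehydrogenase, fell by 3.74 (SE 0.19) and UGA1, the GABA transaminase, fell by 3.13 (SE 0.08). Of the 15, 3 rose and 1 fell in the null strain, with 6 and 0 under centred arrays and 2 and 0 as deposited, and the 4 that passed are near the 27.5% of all genes. UGA4, a GABA permease, rose by 1.34 (SE 0.25) and CAR1, the arginase, by 1.15 (SE 0.23).

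The 5 oxygen and fatty acid genes linked to ATF1 showed 1 rise and 1 fall in the reference strain (1 and 2 as deposited, 2 and 1 with centred arrays), beside 38.9% and 33.1% of all genes. OLE1, the fatty acid desaturase, fell by 1.52 (SE 0.19), beside the fall of 1.13 of ATF1, and ROX1, the hypoxic repressor, rose by 1.20 (SE 0.26). MGA2 (-0.46), SPT23 (-0.21) and HAP1 (0.07) did not pass. The null strain had 3 rises and 0 falls among the 5 (1 and 1 as deposited), beside 12.9% and 14.6% of all genes. After quantile normalization ROX1 rose there by 1.04 (SE 0.26), SPT23 by 0.66 (SE 0.15) and HAP1 by 0.53 (SE 0.10), while OLE1 (0.29, SE 0.19) and MGA2 (-0.48, SE 0.17) did not pass.

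**Figure D5:**
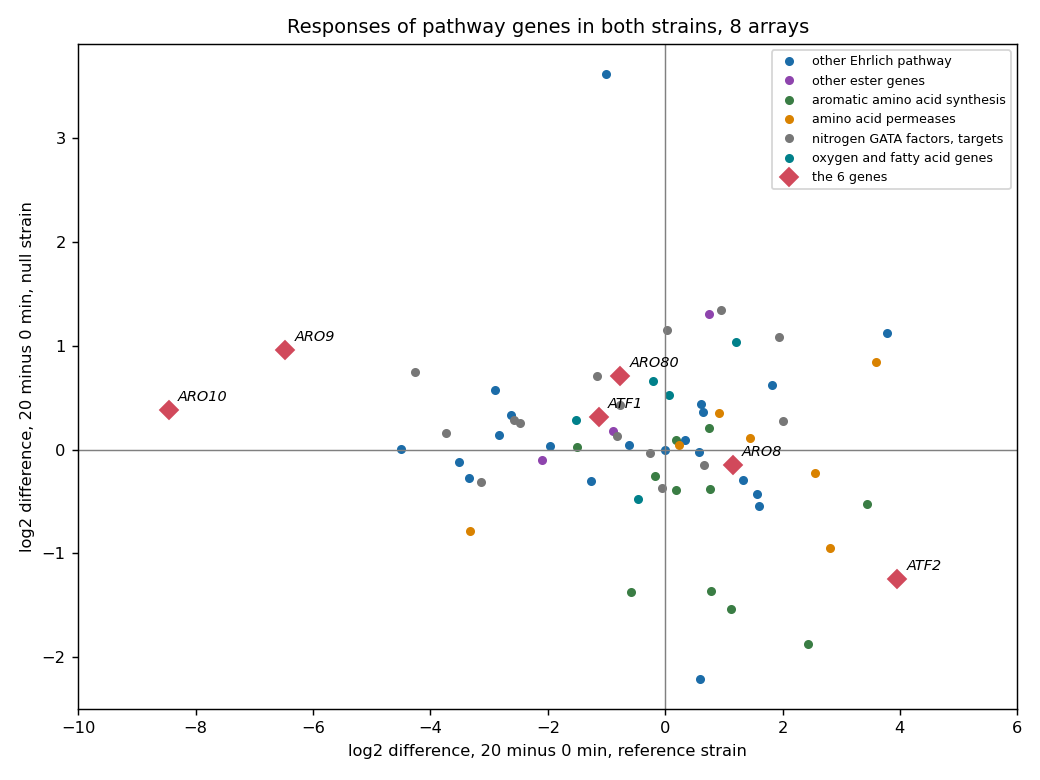
Log2 difference between 20 and 0 min in the reference strain (x axis) and in the null strain (y axis) on the 8 arrays, 1 point per gene of the 6 lists described in the text, with diamonds for the 6 genes. Of the genes plotted, ARO10 and ARO9 lie farthest to the left, at -8.45 and -6.47, and ATF2 farthest to the right, at 3.96.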

How the data were processed

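The authors deposited 1 log2 intensity per probe set and array for 12 Affymetrix arrays; no label or file header used here names the tool that summarised the probes, and per the labels' protocols biotinylated cRNA was made from total RNA. Of 10928 probe sets, 5498 matched S. cerevisiae genes by gene identifier, and the probe set of highest mean per gene gave 5449 genes. Array medians spanned 0.558 log2 units, so arrays were quantile normalized over the matched probe sets. In replicates 1 and 3 of the reference strain the medians were 10.84 and 10.90 at 0 min and 10.40 and 10.34 at 20 min. The scaling therefore also removes a shift that goes with the time label. Whether that shift is technical was not tested. Group means were fitted with limma 3.58.1 in R 4.3.3 to the 8 arrays of replicates 1 and 3 (4 residual degrees of freedom), with Benjamini-Hochberg adjustment over all genes and a threshold of 0.05. No p of a gene is printed from this fit of group means, since leaving out replicate 2 used the contrast over time. For the same reason its SEs and intervals measure only the spread among the arrays kept. The p of ATF1 with replicates 1 and 3 only came from the comparison of strains over both times. Strain means over both times used all 12 arrays. Members and gene lists, written from general knowledge, were chosen with earlier results of these data known. From each list the text names up to 3 genes of largest difference past the threshold in each comparison, with any measured member of a list of 5 or fewer, and others only where marked. Genes named for size were past the threshold by that choice, so a p printed for a list gene is a description. MGL2 and TRP1 were not analysed here. Genes of alike pattern were the 3 with the smallest root mean square difference. The pipeline was tested on simulated data. Alternatives covered scaling, probe sets, dim genes, the variance model, the threshold, a replicate block, all 12 arrays and leaving out arrays. Figures used matplotlib 3.10.9 in Python 3.11.15.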

Additional observations from a re-analysis of the deposited data

Results flagged for a closer look

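The responses of all 6 genes to glucose differed between the strains in the fit of the difference itself on the 8 arrays, as did those of 66.0% of all genes, so passing does not set these genes apart. The log2 difference, null minus reference response, was -1.30 for ARO8, 7.43 for ARO9, 8.83 for ARO10, 1.47 for ARO80, 1.45 for ATF1 and -5.20 for ATF2. Groups of 3 arrays were not tested for a single outlying value of a gene; the position of the replicate 2 arrays is given in the report.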

How the results depend on the processing

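On the 8 arrays all 6 genes passed in the reference response, the difference between responses and the strain difference at 20 min under each scaling, probe set rule, filter, variance model and threshold tried and in each fit without 1 array (lowest and highest count 6 in each, and 6 also for the strains over both times). Over both times the call of ATF1 ended with replicates 1 and 3 only. Neither the probe set rule nor the filter could change the log2 differences, as each gene had 1 probe set and a mean above the limit of the filter. In all 12 arrays as labelled the counts for the reference response, the difference and the strains at 20 min were 0, as was that of the null response. With array weights on all 12 arrays they were 6, 6 and 6, with 2 in the null response and 0 at 0 min. The fitted weight was 0.0550 to 0.369 for arrays of replicate 2, against 1.04 to 5.98 elsewhere. Such weights are low where arrays lie far from their labelled group, so this fit largely repeats the leaving out of replicate 2. The null response, 2 genes, had 1 as deposited, 0 at a threshold of 0.01, 1 with the replicate block and 0 to 1 without 1 array. At 0 min the strain difference, 0 genes, had 1 with arrays centred on their medians and 0 in every fit without 1 array. Signs turned, with no call, for the null response of ATF1 as deposited (-0.026), of ARO8 with centred arrays (0.083) and of ARO10 with all 12 arrays (-0.11), and for the strain difference at 0 min with all 12 arrays of ARO9 (1.89), ARO10 (2.62), ARO80 (0.36) and ATF1 (0.066); the cause was not tested. Deviations of same-numbered arrays correlated at -0.295 to 0.0813 between groups on the 8 arrays, so they showed no pairing by number. With 2 arrays per group this cannot settle whether the samples were paired. With numbers 1 and 3 crossed between the null arrays at 0 and 20 min, an alternative added after seeing the data, the replicate block gave 2 genes in the null response and 6, 6, 0 and 6 in the reference response, the difference, and the strains at 0 and 20 min. The block changed no other count of the 6 genes. Signals near the lowest value limit the sizes for ARO9, ARO10 and ATF2.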

Other observations

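The genes next to the 6 on the chromosome, looked at after the data were seen, passed in 8 of 12 cases in the reference strain, beside 72.0% of all genes. ARO9 lies between SPL2 and YHR138C, which fell by 2.79 (SE 0.39) and 3.27 (SE 0.23), and ARO10 lies between SDH6, which fell by 2.88 (SE 0.22), and YRA1, at -0.02 (SE 0.17), which did not pass. ARO8 lies between KEX1, which encodes a carboxypeptidase, and MCM6, a subunit of the replicative helicase, which rose by 1.13 (SE 0.19) and 1.45 (SE 0.16). Beside ARO80, which was lower, HKR1 and SIP1 rose by 1.03 (SE 0.17) and 0.36 (SE 0.11). Neither neighbour of ATF1 passed, and beside ATF2 the squalene epoxidase gene ERG1 rose by 0.38 (SE 0.12) while PBP1 did not pass. In the null strain 3 of the 12 neighbours passed, beside 27.5% of all genes: KEX1 and MCM6 fell by 0.79 and 1.44, and SDH6 rose by 0.81.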
